A study of Mus musculus with 23 samples.

Results

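The 10 genes described here encode membrane transporters that carry bile acids, organic anions, phospholipid, sterols and conjugates into and out of the hepatocyte. They were taken by symbol from a table of 24440 genes, namely Slc10a1, Slco1b2, Abcb11, Abcb4, Abcc2, Abcg5, Abcg8, Abcc3, Abcc4 and Slc51b. The filter on low counts left 12891 genes for testing, and 9 of the 10 transporters were among them. Slc51b was the transporter left out. The libraries were made from polyadenylated RNA of whole perfused liver of male C57Bl/6 mice, obtained at 6-8 weeks of age and then kept for 15 weeks on normal chow or on a high-fat diet (HFD) with 60% of its energy from fat. WT_chow and WT_HFD are wild-type mice, IL4KO_chow and IL4KO_HFD are mice labelled as lacking interleukin-4, and dKO_chow and dKO_HFD are mice labelled as lacking both interleukin-10 and interleukin-4. Each group held 4 mice, except IL4KO_HFD with 3, and each mouse gave 1 library. Both knockouts share the loss of interleukin-4, so the dKO against IL4KO comparison is the one in which the labelled genotypes differ in interleukin-10 alone. The labels name no allele, litter, cage or batch.

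Bile acids return to the liver in portal blood and enter the hepatocyte across its basolateral (sinusoidal) membrane, mainly through the sodium-dependent carrier NTCP, encoded by Slc10a1, while OATP1B2, encoded by Slco1b2, takes up organic anions and unconjugated bile acids without sodium. At the canalicular membrane, ATP-driven pumps form bile. The bile salt export pump (Abcb11) exports bile acids, MDR2 (Abcb4) moves phosphatidylcholine to the outer leaflet, MRP2 (Abcc2) exports conjugated bilirubin and other conjugates, and the heterodimer of ABCG5 and ABCG8 exports cholesterol and plant sterols. MRP3 (Abcc3), MRP4 (Abcc4) and the heterodimer that OSTβ (Slc51b) forms with OSTα sit in the basolateral membrane and return bile acids and conjugates to blood.

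Abcg5 and Abcg8 are transcribed away from each other, and the DNA between their start sites is shown because both transcripts start from it. In GENCODE M21 on GRCm38 (mm10), Abcg5 lies on the minus strand at chr17:84658234-84683011 and Abcg8 on the plus strand at chr17:84676302-84700333. The spans overlap because the annotation gives Abcg8 a further upstream start, and exons of the pair overlap on opposite strands. Between the Abcg5 start and the Abcg8 start at 84683121 lie 109 bases, chr17:84683012-84683120, with no annotated exon, given on the plus strand with the letters of a TATA box (TATAAA, here read on the minus strand) in capitals.
Abcg5 to Abcg8 interval: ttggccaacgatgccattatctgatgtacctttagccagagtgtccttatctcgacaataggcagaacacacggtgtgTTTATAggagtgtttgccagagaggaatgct
The only listed motif in this stretch was the TATA box, matched by its letters alone. Promoter windows from RefSeq (GRCm38.p6) were found for 9 of the 10 genes, all but Abcc3. The 250 bases before each start were searched on both strands for 8 motifs.

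The letters AGGTCA, the core that many nuclear receptors recognise, were present before a RefSeq start of 5 transporters. Of all 32851 promoter windows in the table, 14% held them. This share and those below are per window, whereas a transporter was counted if any of its windows matched. Slc10a1, Abcc4 and Abcg8 have 2 windows each. The matches are shown with 10 bases on either side, along the gene's strand, with the match in capitals (TGACCT where it lies on the opposite strand).
Abcb11: tttaggccatTGACCTataagcaaat
Slco1b2: tgtaggacagTGACCTgaagagatag
Slc10a1: gcaggcacagAGGTCAgaaaacttaa
Abcc2: tcaggatgaaAGGTCAggagacttgc
Slc51b: ttgtcactggAGGTCAtgcattcgtg
The matches themselves lie at chr2:69342667-69342672 for Abcb11, chr6:141629437-141629442 for Slco1b2 and chr9:65422971-65422976 for Slc51b. That of Slc10a1, at chr12:80968161-80968166, is upstream of its second RefSeq start. That of Abcc2, at chr19:43782259-43782264, is upstream of its RefSeq start. The matches of Slc10a1 and Abcc2 lie inside the gene as GENCODE M21 gives it. The letters TATAAA were found before Slco1b2, Slc10a1, Abcg5 and Abcg8 (12.4% of all windows). The matches begin at -234 and -227 from the start of Slco1b2, -128 for Slc10a1, -84 for Abcg5 and -31 for Abcg8. Those of Slc10a1 and Abcg8 are on the opposite strand. Abcg5 and Abcg8 share the same match, chr17:84683090-84683095. Whether any of them works as a TATA box was not tested. The GC box letters GGGCGG were found before Abcb4 and Abcc4 (32.7% of all windows). None of the windows held the inverted repeat of AGGTCA with 1 base between, the direct repeats with 1 or 4 bases between, the HNF1 palindrome or the HNF4 type motif CAAAGTCCA. These long motifs are rare in any window, at 0.00609%, 0.0335%, 0.0152%, 0.00913% and 0.384% of all windows.

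The other genes lie, in the same annotation, at chr12:80953183-80968705 (Slc10a1, minus strand), chr6:141629518-141686646 (Slco1b2, plus), chr2:69238282-69342616 (Abcb11, minus), chr5:8893717-8959231 (Abcb4, plus), chr11:94343295-94392997 (Abcc3, minus), chr14:118482692-118706219 (Abcc4, minus) and chr9:65412714-65422955 (Slc51b, minus). All 10 are protein coding, and the counts cover each gene as a whole. Exons of Abcb11 overlap those of the antisense gene Gm13613 and the pseudogene Gm13614 on the opposite strand, so without the strand setting their reads may not be told apart from its own.

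Levels are given as CPM, counts scaled to the size of the library. Library totals ran from 7.11 to 30.2 in units of 1000000 counts, the deepest group being dKO_chow (16.2 to 30.2) and the shallowest by its highest library IL4KO_HFD (7.79 to 8.94). All 8 hepatocyte markers (Alb, Ttr and others) were measured in every group. Il10 had 41 to 67 counts in the dKO_chow libraries and 6 to 21 in the dKO_HFD libraries, against 0 to 4 in the other groups. These counts do not bear out the label. Counts over a whole gene cannot show whether the reads come from outside a deleted part, so they cannot decide whether the label is wrong. Below, dKO always means the libraries labelled dKO. Il4 had 0 to 3 counts in any library and checks nothing. On the first principal component dKO_HFD replicate 4 lay at 43.1, between the dKO_chow libraries (64.6 to 74.8) and the rest of dKO_HFD (-17.2 to -10.2). The IL4KO_HFD libraries were spread on the second component, with replicate 2 at -54.5 and replicate 1 at -14.1. Replicate 3 lay at 16.6, towards the IL4KO_chow libraries (23.6 to 32.9). For the transporters called on the diet, values without dKO_HFD replicate 4, or without IL4KO_HFD replicates 2 and 3 in turn, stand beside the results.

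The order of the mean levels per kb of exon was stable at its ends. Slc10a1 and Slco1b2 took the first 2 ranks in every group, at 365 ± 7.3 and 257 ± 20 CPM per kb in WT_chow (SD, n = 4). Abcb11 held rank 3 in every group (143 ± 3.8 CPM per kb in WT_chow) and Abcc3 rank 4 (66.9 ± 7.4). Abcg8 (38.6 ± 4.6), Abcg5 (36.7 ± 4.9), Abcb4 (30.3 ± 1.9) and Abcc2 (22.4 ± 2.4) followed in WT_chow, with ranges that overlap for Abcg8 and Abcg5 and for Abcg5 and Abcb4, and their order changed between groups. Abcc4 held rank 9 (0.505 ± 0.071) and Slc51b rank 10 (0.241 ± 0.25 CPM per kb) throughout by their means. Their ranges overlapped in every group but IL4KO_chow, as in WT_chow with 0.425 to 0.588 for Abcc4 and 0 to 0.575 for Slc51b.

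**Figure D1:**
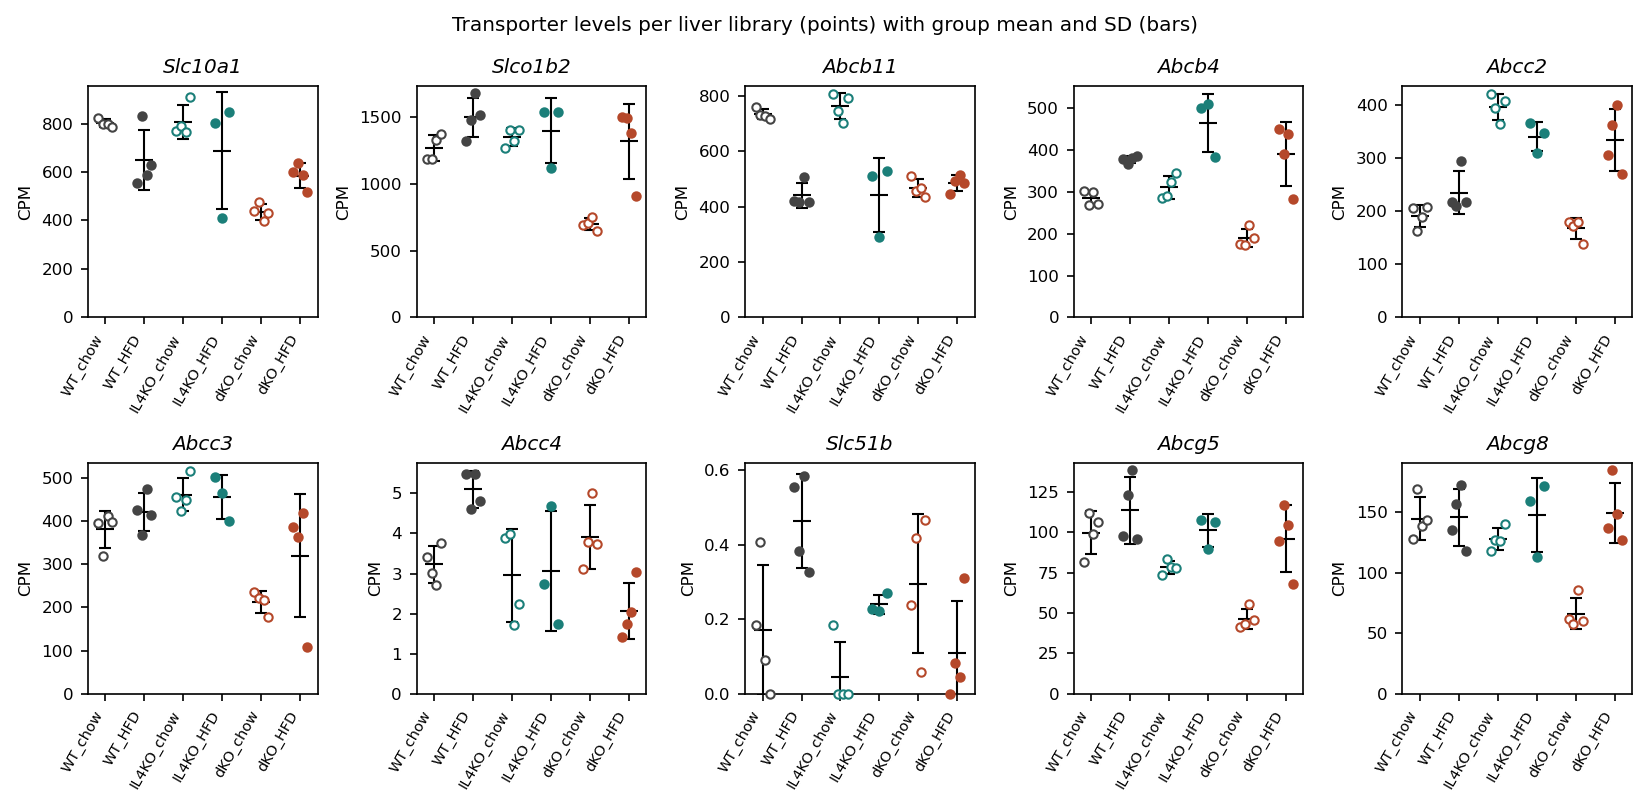
CPM of each transporter (vertical axis) in the 6 groups (horizontal axis), with open points for chow libraries, filled points for HFD libraries, and a bar for the mean and SD. The dKO_chow libraries lie below all WT_chow libraries for Slc10a1, Slco1b2, Abcb11, Abcb4, Abcc3, Abcg5 and Abcg8, and Abcc2 is high in both IL4KO groups.

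The first question is what the diet did in wild-type liver. Abcb11, the bile salt export pump, fell and Abcb4, the phosphatidylcholine translocator, rose, and the other 7 tested transporters were not called. Here and below a gene is called when edgeR's quasi-likelihood test, two-sided, gave a Benjamini-Hochberg adjusted p (FDR) below 0.05 over all tested genes. In WT mice 19.5% of all tested genes were called, 9.63% higher and 9.84% lower, against 1 transporter of 9 higher and 1 lower. The Abcb11 level was 761, 732, 727 and 715 CPM in WT_chow and 420, 416, 508 and 418 CPM in WT_HFD. Every HFD library lay below every chow library, and HFD replicate 3 was the highest of its group. The log2 fold change was -0.74 (SE 0.13, FDR 0.000519). For Abcb4 the WT_chow libraries gave 301, 268, 299 and 270 CPM and the WT_HFD libraries 378, 366, 381 and 385 CPM. These groups did not overlap either, with a log2 fold change of 0.41 (SE 0.12, FDR 0.0211), and the call was lost without WT_chow replicate 2 (FDR 0.0682), WT_chow replicate 4 (0.0675) or WT_HFD replicate 4 (0.0502).

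Both changes were seen again in IL4KO mice, where 9.08% of all tested genes were called, 5.14% higher and 3.94% lower, and again 1 transporter of 9 higher and 1 lower. Abcb11 stood at 806, 746, 703 and 794 CPM in IL4KO_chow and at 509, 289 and 527 CPM in IL4KO_HFD. No HFD value reached the chow range, and the lowest, 289 CPM, was that of replicate 2. The log2 fold change was -0.79 (SE 0.14, FDR 0.00178), -0.55 (FDR 0.00627) without that library and -0.93 (FDR 0.000482) without replicate 3. Abcb4 was 284, 291, 322 and 345 CPM in IL4KO_chow and 500, 510 and 384 CPM in IL4KO_HFD. All HFD values were above the chow values (log2 fold change 0.58, SE 0.13, FDR 0.0078), but without IL4KO_HFD replicate 2 it was 0.52 (FDR 0.0665), and without replicate 3 0.71 (FDR 0.00169). None of the 9 transporters differed in diet effect between IL4KO and WT by edgeR's interaction test, in which 0.0465% of all genes were called and 1 transporter, Abcc2, had an unadjusted p below 0.05. DESeq2 and limma-voom called none of them either.

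In the livers labelled dKO the same diet change went another way. A set of 6 uptake, canalicular and sterol transporters rose on HFD, Abcc4 fell, and Abcb11, lower on HFD in the other genotypes, was not called. Of the 9 transporters 6 were called higher and 1 lower, against 19.4% and 20.5% of all tested genes, 40% in all. The median log2 fold change of the 9 was 0.92, against -0.02 over all tested genes. The levels of some marker lists moved with the diet in the same libraries. The summed hepatocyte markers were 78080 to 89495 CPM in dKO_chow and 119121 to 130153 CPM in dKO_HFD, the cholangiocyte markers 493 to 868 and 125 to 332 CPM, the neutrophil markers 132 to 440 and 2.41 to 59.7 CPM, and the acute phase genes 35043 to 47315 and 7424 to 27027 CPM. Their part in the transporter changes was not tested. Abcb11 was 509, 458, 468 and 434 CPM in dKO_chow and 444, 493, 514 and 486 CPM in dKO_HFD. The groups overlapped, and the difference was 0.05 on the log2 scale with a 95% interval from -0.21 to 0.32. Abcb4 was 175, 173, 221 and 189 CPM in dKO_chow and 449, 392, 437 and 283 CPM in dKO_HFD. All HFD values were higher (log2 fold change 1.04, SE 0.12, FDR 3.26e-06), the lowest being replicate 4, without which the value was 1.17.

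**Figure D2:**
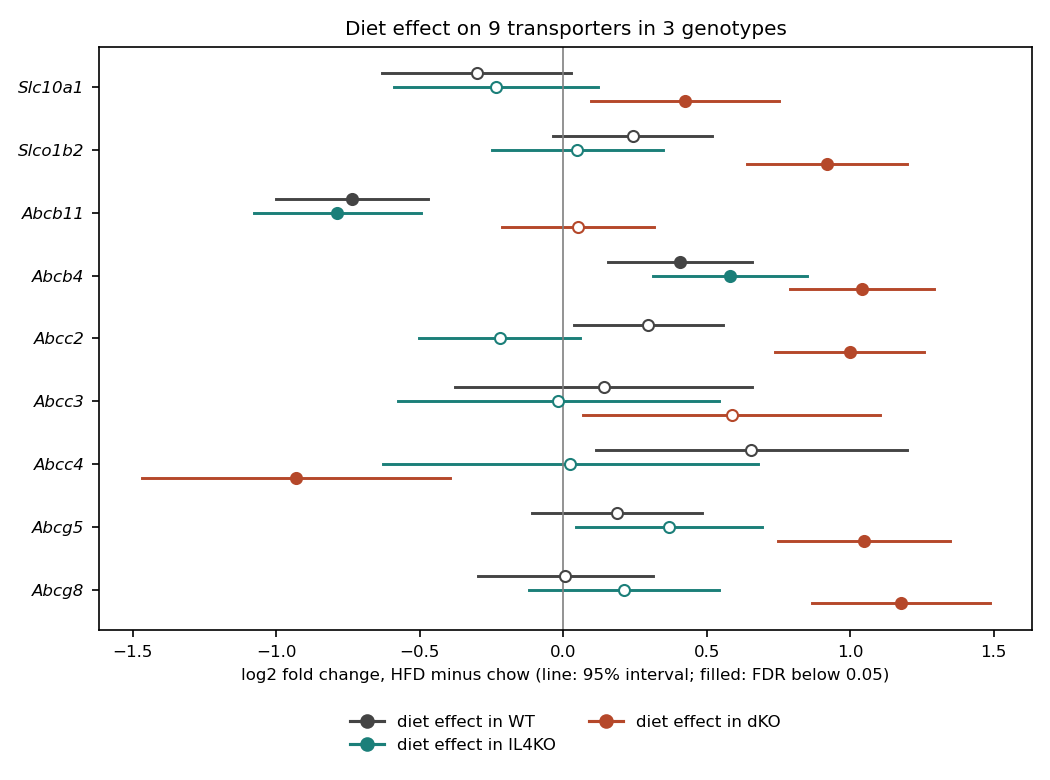
Log2 fold change of HFD against chow (horizontal axis) for the 9 tested transporters (vertical axis) in WT, IL4KO and dKO mice, with 95% intervals as lines and filled points where FDR is below 0.05. The Abcb11 points lie at -0.74 and -0.79 in WT and IL4KO and at 0.05 in dKO, while Abcb4 is above 0 in all 3 genotypes.

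The uptake carriers rose from low chow levels in dKO. Slco1b2 was 692, 705, 752 and 646 CPM in dKO_chow and 1498, 1494, 1383 and 906 CPM in dKO_HFD. Every HFD value exceeded every chow value, and the log2 fold change was 0.92 (SE 0.13, FDR 2.83e-05), or 1.07 without replicate 4. In WT_HFD Slco1b2 was 1323, 1476, 1681 and 1517 CPM, a range that overlaps the WT_chow range of 1185 to 1374 CPM, and the difference was not called (0.24, FDR 0.216). In IL4KO it ranged from 1271 to 1406 CPM on chow and from 1115 to 1539 CPM on HFD (0.05, FDR 0.869). Slc10a1 was 440, 478, 397 and 429 CPM in dKO_chow and 599, 637, 589 and 516 CPM in dKO_HFD. Its groups did not overlap, but the change was small (0.42, SE 0.16, FDR 0.037) and was not called with upper quartile scaling (FDR 0.0739), on the deposited log2 values (0.0877), or without any of dKO_chow replicates 1, 3 and 4 and dKO_HFD replicates 1, 2 and 3, where the FDR ran from 0.0619 to 0.0888. Without dKO_HFD replicate 4 it was 0.49 (FDR 0.0204). In WT mice Slc10a1 was 824, 798, 798 and 787 CPM on chow and 553, 830, 588 and 631 CPM on HFD. One HFD mouse lay above the whole chow range, and the difference was not called (-0.30, FDR 0.192). In IL4KO_HFD it was 804, 410 and 848 CPM against 768, 789, 764 and 911 CPM in IL4KO_chow, with replicate 2 alone below the chow values (-0.23, FDR 0.418).

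Both genes of the canalicular sterol exporter rose on HFD in dKO. Abcg5 was 41.5, 43.3, 55.4 and 45.7 CPM in dKO_chow and 94.8, 117, 104 and 68.0 CPM in dKO_HFD, and Abcg8 was 61.8, 57.5, 85.5 and 60.2 CPM against 137, 185, 149 and 127 CPM. Neither gene had overlapping groups. The log2 fold changes were 1.05 (SE 0.14, FDR 1.86e-05) for Abcg5 and 1.18 (SE 0.15, FDR 8.35e-06) for Abcg8, and 1.19 and 1.25 without dKO_HFD replicate 4. In WT they were 0.19 (FDR 0.393) and 0.01 (FDR 0.983), and in IL4KO 0.37 (FDR 0.139) and 0.21 (FDR 0.429), none called. As a description over all 23 libraries, the log2 CPM of Abcg5 and Abcg8 correlated at 0.94, and at 0.83 after each group's mean was removed. Their ratio within a library overlapped between the diets in every genotype, at 0.648 to 0.760 in dKO_chow and 0.533 to 0.702 in dKO_HFD. In WT_HFD it was 0.719 to 0.805, above every dKO_HFD library. An exact permutation test of that difference gave p 0.0286, the smallest possible, and 0.0686 after adjustment over 36 ratio tests. The strand setting of the authors' counting is not given in the sources used here, so reads from the overlapping exons of the pair may not be told apart.

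MRP2 and the basolateral exporters differed from one another on the diet. Abcc2 rose in dKO from 179, 172, 180 and 137 CPM to 305, 361, 399 and 269 CPM, without overlap (log2 fold change 0.998, SE 0.13, FDR 7.08e-06, and 1.09 without replicate 4). Its changes in WT (0.30, FDR 0.1) and IL4KO (-0.22, FDR 0.317) were not called. Abcc3 was 235, 221, 218 and 177 CPM in dKO_chow and 386, 364, 419 and 108 CPM in dKO_HFD. All HFD mice but 1 were above the chow range and that 1, replicate 4, was below it, and the gene was not called (0.59, SE 0.25, FDR 0.0665), whereas it was called without replicate 4. On HFD it was 367 to 473 CPM in WT and 400 to 502 CPM in IL4KO, both overlapping the chow libraries (0.14, FDR 0.745 and -0.02, FDR 0.979). Abcc4 was scarce, at 3.11, 3.79, 5.02 and 3.73 CPM in dKO_chow and 1.43, 1.73, 2.04 and 3.05 CPM in dKO_HFD. It fell by 0.93 on the log2 scale (SE 0.26, FDR 0.00673), with replicate 4 the nearest to the chow values, and by 1.14 without it. In WT it was 3.42, 3.02, 2.72 and 3.76 CPM on chow and 5.49, 4.62, 5.49 and 4.80 CPM on HFD, where every HFD mouse was higher but the test did not call it (0.66, SE 0.26, FDR 0.0815). In IL4KO it spread widely on both diets, over 1.72 to 3.97 CPM on chow and 1.75 to 4.69 CPM on HFD (0.02, FDR 0.974).

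The diet effect itself differed between dKO and each of the other genotypes for most of the transporters. Against WT, the diet effect in dKO was higher for 7 of the 9 and lower for Abcc4, where 12.6% of all tested genes were called in each direction and 25.2% in all. The differences of log2 fold changes were 1.17 for Abcg8 (FDR 0.00142), 0.86 for Abcg5 (0.00621), 0.79 for Abcb11 (0.00504), 0.73 for Slc10a1 (0.0234), 0.70 for Abcc2 (0.00851), 0.68 for Slco1b2 (0.0141) and 0.63 for Abcb4 (0.012). For Abcc4 the difference was -1.59 (SE 0.37, FDR 0.00552). Without dKO_HFD replicate 4 they were 1.25 for Abcg8, 1.01 for Abcg5, 0.83 for Slco1b2, 0.77 to 0.80 for the other 4 and -1.79 for Abcc4. Against IL4KO, 6 were called higher and none lower (12.7% of all genes higher, 24.4% in all), with 1.22 for Abcc2 (FDR 0.000671), 0.96 for Abcg8, 0.87 for Slco1b2, 0.84 for Abcb11, 0.68 for Abcg5 and 0.66 for Slc10a1. The Slc10a1 value (FDR 0.0438) lost its call with upper quartile scaling (0.0688), on the deposited log2 values (0.0535), with the compared groups alone (0.0783) and in most fits that left out a library, and was 0.40 (FDR 0.129) without IL4KO_HFD replicate 2. Abcg5 (0.0243) lost it on the deposited log2 values (0.0505) and without IL4KO_HFD replicate 2 (0.0989) or dKO_HFD replicate 2 (0.0594). Without IL4KO_HFD replicate 2 Abcb11 was 0.62 (FDR 0.00697), Abcc2 1.16, Abcg8 0.81 and Slco1b2 0.74, all called. These interaction tests share the dKO libraries. Each difference also equals the genotype difference on HFD minus that on chow, so it is not separate from the genotype results below. Without dKO_HFD replicate 4 all 9 transporters were called in each of these tests.

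The second question is how genotype sets the levels on one diet. On chow the IL4KO libraries differed from WT in Abcc2 alone among the 9 tested, while 9.61% of all tested genes were called, 5.93% called higher. Abcc2 was 206, 163, 188 and 207 CPM in WT_chow and 421, 394, 363 and 407 CPM in IL4KO_chow. Each IL4KO mouse was above each WT mouse, at a log2 fold change of 1.05 (SE 0.13, FDR 1.35e-05), and the call held in all alternatives and with any 1 library left out. The next largest difference was Abcg5 at -0.35 (FDR 0.135), which was called in a fit of the compared groups alone. On HFD Abcc2 was again the only one called, against 3.02% of all genes called and 1.73% called higher. It was 216, 210, 294 and 218 CPM in WT_HFD and 364, 309 and 346 CPM in IL4KO_HFD. The groups stayed apart (0.54, SE 0.13, FDR 0.0305), but the call was lost in the fit of the compared groups alone (0.12) and without WT_HFD replicate 1 (0.0699), 2 (0.0891) or 4 (0.0967) or IL4KO_HFD replicate 1 (0.129) or 3 (0.0897).

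**Figure D3:**
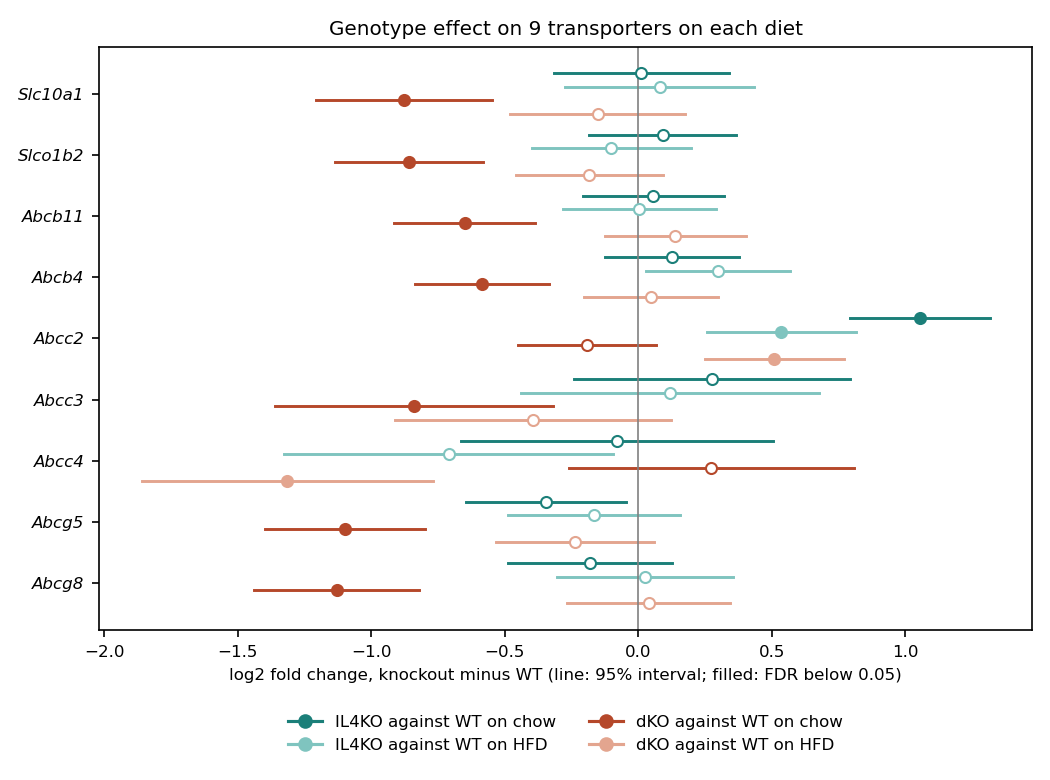
Log2 fold change of knockout against WT (horizontal axis) for the 9 tested transporters (vertical axis) on chow and HFD, with 95% intervals as lines and filled points where FDR is below 0.05. Abcc2 is the filled point above 0 for IL4KO on chow at 1.05, and 7 transporters are filled below 0 for dKO on chow.

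The dKO-labelled livers on chow had the lowest levels of most transporters. Against WT_chow, 7 of the 9 were lower and none higher, with 21.9% of all tested genes called lower and 46.3% called in all. The libraries of these 7 did not overlap between the groups, as held in that direction for 20.1% of all tested genes. The median of the 9 was -0.84, against 0.02 over all tested genes. The falls were largest for the sterol exporter, at -1.13 for Abcg8 (SE 0.15, FDR 7.07e-06) and -1.10 for Abcg5 (SE 0.15, FDR 7.18e-06). WT_chow livers held 128, 169, 139 and 144 CPM of Abcg8 and 81.2, 112, 99.1 and 106 CPM of Abcg5, all above the dKO_chow values given above. The uptake carriers fell by 0.88 (Slc10a1, SE 0.16, FDR 0.000153) and 0.86 (Slco1b2, SE 0.13, FDR 3.25e-05) on the log2 scale. WT_chow gave 1185, 1188, 1326 and 1374 CPM of Slco1b2, and no library of one group reached the other's range.

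Abcc3, which exports conjugates to blood, was 396, 319, 412 and 398 CPM in WT_chow and also fell in dKO_chow (-0.84, SE 0.25, FDR 0.00965). The canalicular pumps Abcb11 (-0.65, SE 0.13, FDR 0.000328) and Abcb4 (-0.59, SE 0.12, FDR 0.000524) were lower, again without overlap. Abcc2 (-0.19, FDR 0.216) and Abcc4 (0.27, FDR 0.405) were not called. Against IL4KO_chow, 8 of the 9 were lower, all but Abcc4, with 22.2% of all genes called lower and 45.2% in all, and these 8 did not overlap, where 22.4% of all genes lay wholly lower. Abcc2 showed the largest of these differences, at -1.25 (SE 0.13, FDR 4.38e-07). The 7 calls against WT and the 8 against IL4KO held under every alternative and with any 1 library left out. These comparisons share the dKO_chow libraries.

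Marker lists of some other cell types and the acute phase genes moved with the same libraries. In bulk tissue, fewer cells of a type and less RNA per cell cannot be told apart. Against WT_chow, where 46.3% of all tested genes were called (24.4% higher, 21.9% lower), all 9 tested cholangiocyte markers (such as Krt19 and Epcam) were called higher in dKO_chow, and their summed level was 493 to 868 CPM against 58.8 to 64.4 CPM. Among the other lists, all 8 neutrophil markers were higher (132 to 440 CPM against 2.6 to 26.6) and so were 5 of 6 Kupffer cell markers (571 to 751 CPM against 217 to 412). The acute phase genes were higher in 12 of 13, summing to 35043 to 47315 CPM against 6245 to 13919 CPM. Of the 8 hepatocyte markers 6 were lower and none higher, and their sum was 78080 to 89495 CPM against 111672 to 117668 CPM, with a median log2 fold change of -0.81. Sctr was the 1 cholangiocyte marker not tested, and was at 0 counts in 13 libraries. In dKO_HFD replicate 4 lay at the top of its group for these lists, with up to 59.7 CPM of neutrophil and 27027 CPM of acute phase genes. On the diet in dKO these lists moved the other way, where 40% of all genes were called. Called lower were 9 of 9 cholangiocyte, 8 of 8 neutrophil, 6 of 6 Kupffer cell and 9 of 13 acute phase genes. Called higher were 1 acute phase gene and 6 of 8 hepatocyte markers. The summed sinusoidal endothelial and stellate cell markers overlapped between these groups. They were 188 to 222 and 295 to 388 CPM in dKO_chow. In WT_chow they were 215 to 228 and 290 to 348 CPM, and in dKO_HFD 209 to 240 and 256 to 349 CPM. The part of these markers in the transporter results was not tested.

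On HFD the dKO libraries differed from WT in Abcc2 and Abcc4 only (24.5% of all genes called, 12.9% higher and 11.6% lower). Abcc2 was higher (0.51, SE 0.13, FDR 0.00548), although the lowest dKO_HFD value of 269 CPM lay below the highest WT_HFD value of 294 CPM. Abcc4 was lower (-1.31, SE 0.26, FDR 0.00124), with 1.43 to 3.05 CPM in dKO_HFD under 4.62 to 5.49 CPM in WT_HFD. Both calls held under every alternative and with any 1 library left out, at 0.60 and -1.53 without dKO_HFD replicate 4. Against IL4KO_HFD no transporter was called and none had an unadjusted p below 0.05 by edgeR, and DESeq2 and limma-voom called none, while 2.51% of all genes were called. That share rests on 323 genes, which became 39 to 1241 with 1 library left out (39 without IL4KO_HFD replicate 2, 1241 without replicate 3) and 4 with the compared groups alone. The 95% interval of the difference ran from -0.31 to 0.25 for Abcc2 and from -1.24 to 0.04 for Abcc4.

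Slc51b, the OSTβ subunit, was too scarce to test. It had 0 to 14 counts in a library and was at 0 in 5 of 23, where a floor of 3 counts per library allows 0.226 to 0.429 CPM. Its highest level was 0.584 CPM in a WT_HFD library. Its partner Slc51a was not tested either. In a fit without the filter, dKO against WT on HFD gave -2.08 (FDR 0.0546) for Slc51b, and it was not called in any comparison. Exons of Slc51b overlap those of Rasl12 on the opposite strand.

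Abcc2 was looked at more closely because it alone followed the IL4KO label on both diets, and this was chosen after its values were seen. It lies on the plus strand at chr19:43782192-43840740. Of the 100 tested genes whose midpoint is within 5 Mb of it, 33 were called in IL4KO against WT on chow, 21 higher and 12 lower, where 9.61% of all tested genes were called. Around the other 9 transporters the share was 4.76% to 13.8%. On HFD 16 of the 100 were called (11 higher, 5 lower), against 3.02% of all genes, and the share was 9.09% within 2 Mb and 12.1% within 10 Mb. In dKO against WT the count was 47 of 100 on HFD, against 24.5% of all genes, but 53 of 100 on chow, near the 46.3% of all genes, where Abcc2 itself was not called (-0.19, FDR 0.216). In dKO against IL4KO it was 42 of 100 on chow, against 45.2%, and 0 of 100 on HFD, against 2.51% of all genes, a share that moved widely with the libraries used. Neighbouring genes are not independent of one another, and what the neighbours share with Abcc2 was not tested.

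**Figure D4:**
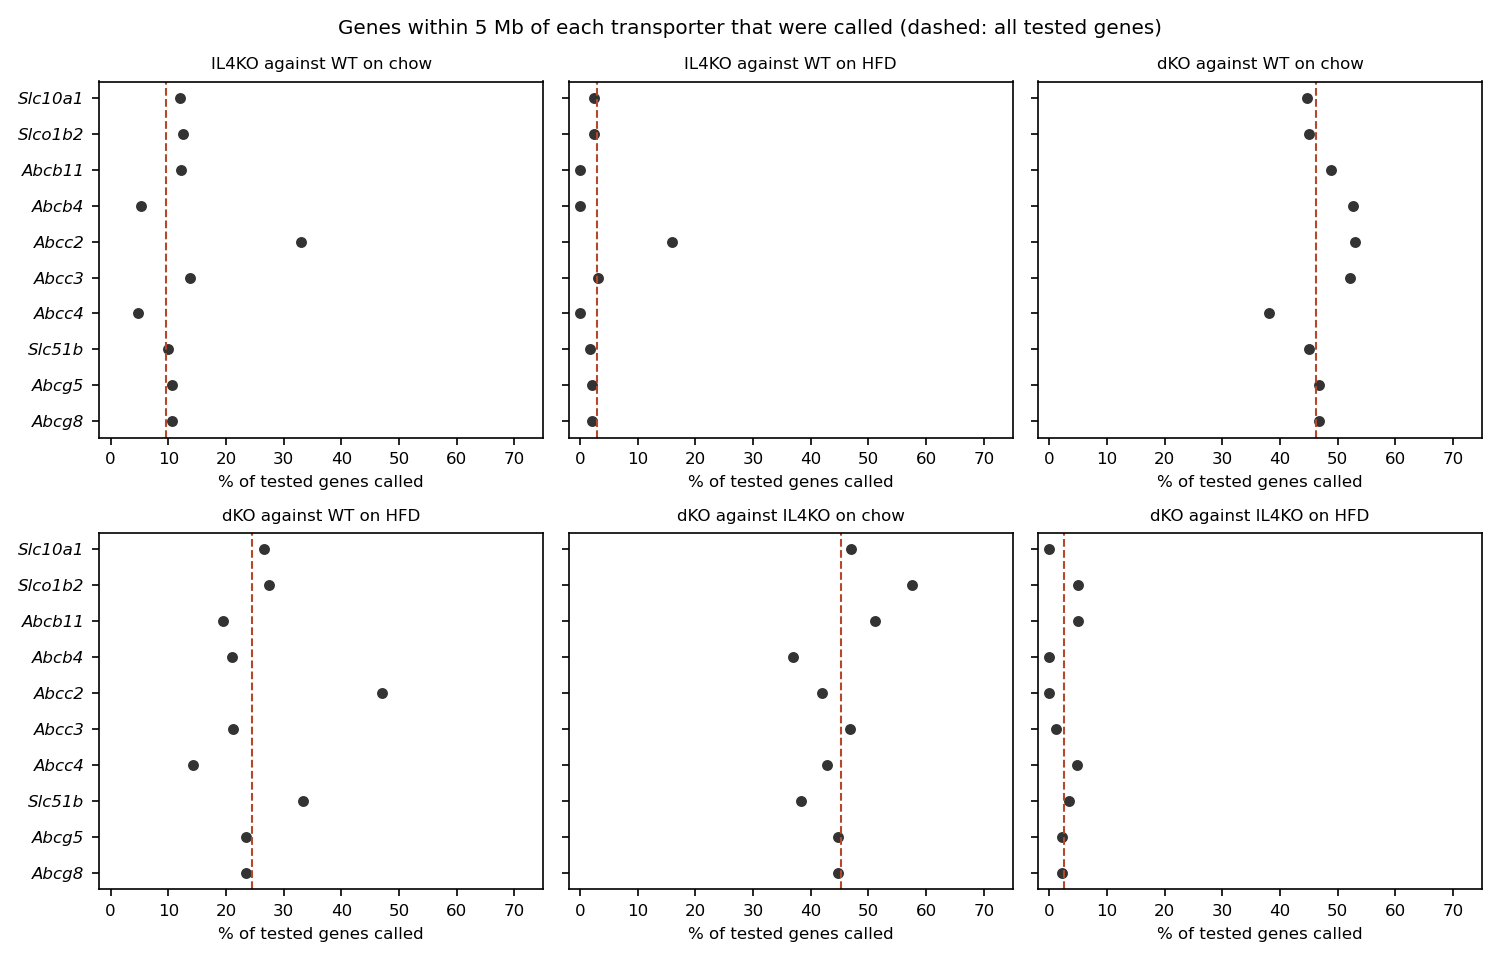
Percent of tested genes within 5 Mb of each transporter (vertical axis) that were called in 6 genotype comparisons (horizontal axis, percent), with a dashed line at the percent over all tested genes. Abcc2 lies at 33 and 16 percent in IL4KO against WT on chow and HFD, 53 and 47 percent in dKO against WT, and 42 and 0 percent in dKO against IL4KO, with the dashed line at 46.3 percent in dKO against WT on chow.

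Other genes of bile formation were read from 6 lists of related genes. Where each protein sits in the cell was not tested. The other basolateral list also holds Slc10a2, which was listed as an intestine and kidney marker too. In dKO against WT on chow, where 46.3% of all tested genes were called, 24.4% higher and 21.9% lower, bile acid synthesis had 11 of 14 genes lower and none higher, led by Hsd3b7 (-0.89), Akr1d1 (-1.09) and Acox2 (-0.66), with a list median of -0.62. Of the 12 tested genes of the other basolateral list 7 were lower and 1 higher, among them Slc22a18 (-0.55) and Abcc6 (-0.53). The 8 genes of the other canalicular list split into 4 higher and 4 lower. Slc47a1, which extrudes organic cations, fell from 138 ± 16.5 CPM in WT_chow to 58.6 ± 3.62 CPM in dKO_chow (SD, n = 4 each, log2 fold change -1.23), as did Abcb6 (-0.65), while the phospholipid flippase Atp8b1 rose (0.62). Apical trafficking had 3 of 10 higher and 3 lower, among them the membrane linker ezrin (Ezr, 2.23) and the related linker radixin (Rdx, -0.35). Among 18 regulators, 2 were higher and 5 lower. Ppargc1a (-1.57) and Nr0b2 (-1.20), which encodes the repressor SHP, fell. Sterol handling had 2 of 9 higher and 2 lower, among them Npc1 (-0.46), Npc2 (0.35) and Soat2 (-0.30). The 4 of 9 called for sterol handling and the 7 of 18 for regulators lie near the share over all genes.

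On the diet 40% of all tested genes were called in dKO, 19.4% higher and 20.5% lower. The same lists gave 9 of 14 bile acid synthesis genes higher and 1 lower. Of the 12 tested genes of the other basolateral list 5 were higher and 3 lower. The list medians were 0.42 and 0.35, against -0.02 over all tested genes. Hsd17b4 (1.08) and Acox2 (0.74) rose and Cyp2c70 (-1.10), which makes muricholic acids in mice, fell. Slc22a3 (1.77) and Abcc6 (0.47) rose. The other canalicular list gave 3 of 8 higher and 1 lower, with Slc47a1 at 1.14 and the efflux pump Abcg2 at 0.91. Apical trafficking gave 2 of 10 higher and 3 lower, and sterol handling 1 of 9 higher and 2 lower. Regulators gave 5 of 18 higher and 3 lower, led by Ppara (1.31), Fgfr4 (-0.72) and Nr1i3 (0.96). The shares called for trafficking, the other canalicular list, sterol handling and regulators lie near that of all genes. In WT, where 19.5% of all genes were called, 1 of the 14 bile acid genes was higher and 2 were lower, near that share. From the other lists, the basolateral prostaglandin carrier Slco2a1 (-1.66) and the canalicular efflux pump Abcb1a (1.96) were called. The counts called in their lists in WT are not given here. Slco2a1 (-1.50) and Abcb1a (1.48) were called on the diet in IL4KO too. In IL4KO against WT on chow, where 9.61% of all genes were called, regulators gave 1 of 18 higher and 2 lower. Nr0b2 was 60.6 ± 13.9 CPM in WT_chow and 20.3 ± 6.11 CPM in IL4KO_chow (SD, n = 4 each, -1.59, FDR 0.000191), Ppargc1a fell (-1.06) and Nr5a2 rose (0.33). Bile acid synthesis gave 2 of 14 lower, Cyp2c70 (-0.71) and Hsd3b7 (-0.28).

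The transporters did not all vary together. Over the 23 libraries the log2 CPM of Slc10a1 and Abcb11 correlated at 0.70, at 0.69 within groups and at 0.76 without dKO_chow. Abcb11 and Abcb4 correlated at -0.23 over all libraries and at -0.76 without dKO_chow. The tested genes whose profile was most like that of Slc10a1 were Adh5, Rdh7 and Serpinf1, each at 0.93 over 23 libraries. For Abcc4 they were Spg21 (0.88), Parp12 (0.85) and Ctsb (0.84). These values share groups and libraries and are given with no test.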

How the data were processed

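Estimated counts, listed by gene symbol for 23 liver libraries, were deposited by the authors, with log2 values for 14078 genes. Per the submitters' processing notes bcl2fastq 2.16, TopHat2 2.0.8, Partek and mm10 were used. The sources used here name no annotation, counting or strand setting. The transporters and lists were chosen with earlier results of these data known.

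Estimated counts were rounded, then analysed in edgeR 4.0.16 under R 4.3.3, filtered by group (12891 genes), scaled by trimmed mean of M values and fitted with 6 group means by the robust quasi-likelihood test, two-sided, calling genes at 0.05 after Benjamini-Hochberg adjustment across the 12891. The 12 comparisons were 9 pairs and 3 interactions. Intervals are 95%, and residual degrees of freedom were 17. SE is the absolute log2 fold change divided by the square root of F. Alternatives used DESeq2 1.42.0, limma 3.58.1 (voom, and trend on the deposited log2 values), other scaling and filters, thinning and left-out libraries. The window around Abcc2 was added after seeing the data. All transporters were named, with up to 3 called genes per list by smallest FDR. Results for some genes that this rule names are not reported here. The pipeline was tested on simulated data. Replicate libraries correlated at 0.950 or more, and no libraries were identical.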

Additional observations from a re-analysis of the deposited data

Results flagged for a closer look

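In 5 of 50 groups of 4 libraries, 1 library lay far from the other 3 by Dixon's ratio of gap to range. For continuous, normally distributed values chance gives about 1 in 20 such groups. Slc10a1 in IL4KO_chow replicate 4 was 911 CPM (ratio 0.832). Abcb11 in WT_HFD replicate 3 was 508 CPM (0.962), and Abcc2 in the same library was 294 CPM (0.910). Abcg8 in dKO_chow replicate 3 was 85.5 CPM (0.846). Slc51b in IL4KO_chow replicate 1 was 0.185 CPM with the others at 0. The ratio is then 1 whatever the value above 0, so this flag carries no information. The causes of the flagged values were not tested.

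The diet effect differed between dKO and WT by edgeR's interaction test for Abcg8 (1.17 on the log2 scale), Abcg5 (0.86), Abcb11 (0.79), Slc10a1 (0.73), Abcc2 (0.70), Slco1b2 (0.68), Abcb4 (0.63) and Abcc4 (-1.59). Between dKO and IL4KO it differed for Abcc2 (1.22), Abcg8 (0.96), Slco1b2 (0.87), Abcb11 (0.84), Abcg5 (0.68) and Slc10a1 (0.66).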

How the results depend on the processing

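No paired analysis was possible because the groups are separate mice and the labels name no pairing. The replicate numbers used here follow the order of the samples and link no libraries between groups. No transporter called in the main fit of a comparison reversed direction there. The directions of transporters not called were not compared. The 7, 2 and 8 transporters called in dKO against WT on chow and on HFD and in dKO against IL4KO on chow were called in each alternative.

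Fitting the compared groups alone gave 2 transporters in IL4KO against WT on chow and 0 on HFD, where 1 was called. Over all genes it gave 528 in the diet effect in IL4KO (against 1170), 95 in IL4KO against WT on HFD (389), 4 in dKO against IL4KO on HFD (323) and 21 in the IL4KO minus WT interaction (6). Without both dKO_HFD replicate 4 and IL4KO_HFD replicate 3 there were 2413 in the diet effect in IL4KO, 1116 in dKO against IL4KO on HFD, 18 in the IL4KO minus WT interaction, 2 transporters in IL4KO against WT on HFD and 1 (Abcc4) in dKO against IL4KO on HFD. DESeq2 gave 589 in dKO against IL4KO on HFD and 68 in the IL4KO minus WT interaction, limma-voom gave 207 in the former, the deposited log2 values gave 14 in the latter, and thinning gave 254 in IL4KO against WT on HFD.

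With 1 library left out, transporters called ran from 1 to 2 in the diet effect in WT, 1 to 2 in IL4KO and 0 to 2 in IL4KO against WT on HFD. All genes called ran from 236 to 2030 in the diet effect in IL4KO, 185 to 631 in IL4KO against WT on HFD, 39 to 1241 in dKO against IL4KO on HFD, 3 to 8 in the IL4KO minus WT interaction, 2130 to 4457 in dKO minus WT and 1293 to 4190 in dKO minus IL4KO. Without IL4KO_HFD replicate 2 there were 236, 39 and 1293 in the diet effect in IL4KO, dKO against IL4KO on HFD and dKO minus IL4KO, without IL4KO_HFD replicate 3 there were 2030 and 1241 in the former pair, and without dKO_HFD replicate 2 there were 2130 in dKO minus WT.

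Upper quartile scaling moved the share of calls that were higher from 52.8% to 63.2% in dKO against WT on chow, 50.8% to 63.7% in dKO against IL4KO on chow, 48.6% to 36.1% in the diet effect in dKO, 49.9% to 38.3% in dKO minus WT and 52.0% to 38.0% in dKO minus IL4KO. The deposited log2 values gave 61.8%, 63.3%, 37.4%, 37.2% and 40.0%, and 54.7% against 37.8% in dKO against IL4KO on HFD. The cause of these shifts was not tested. Slc51b was too scarce at this depth to be tested.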
